A study of Mus musculus with 4 samples.

Results

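Elastin, the fibrillins, the fibulins and 2 proteins of the elastin and microfibril surface form a group of 10 genes whose products build the elastic fibre: Eln, Fbn1, Fbn2, Fbln1, Fbln2, Fbln5, Efemp1 (fibulin 3), Efemp2 (fibulin 4), Emilin1 and Mfap4. The genes were taken by their symbols in the deposited signal table, where they have 21 probes, out of 27223 gene symbols and 56447 probes on the array. They were followed in mouse aortic vascular smooth muscle cells that grew out of explants of adult C57BL/6J aorta. All cultures carried a genotype given as EP4-Tg, after EP4, one of the receptors that bind prostaglandin E2 (PGE2). Each of 4 cultures was measured on 1 single-colour array: 2 were given PGE2 for 24 h and 2 stayed untreated for 24 h, all kept in the medium written as 10% DMEM. The dose of PGE2 and the promoter and species of the EP4 transgene are not given in the sources used here. No culture of another genotype was analysed here, and every difference below is one between EP4-Tg cultures with and without PGE2. The cultures are described as biological replicates, and with 2 per group the number of arrays limits the precision of every value.

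An elastic fibre has an amorphous core of elastin laid on a scaffold of microfibrils. Smooth muscle cells of the aortic wall secrete the soluble precursor tropoelastin, fibulins 4 and 5 bring it to fibrillin microfibrils, and lysyl oxidases cross-link it. Mutations in the human genes for elastin, fibrillin 1 and fibulin 4 cause disease of the aorta, and in adult arteries little new elastin is normally made.

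Intensities below are the deposited processed intensities after each array was scaled to the same 75th percentile over its probes (397.8 units), so they compare arrays for 1 probe and not 1 probe with another. Log2 differences are PGE2 minus control and carry the limma standard error after ±. A probe was kept when it was well above background, by the scanner software's flag, on both arrays of at least 1 group, which 17 of the 21 probes and 9 of the 10 genes were. A gene was called at a Benjamini-Hochberg adjusted p under 0.05 over all 17660 genes or unnamed probes tested. Between 47.9% and 53.8% of non-control spots per array were well above background, and none was saturated. Arrays of 1 group correlated at 0.978 for PGE2 and 0.974 for control and arrays of different groups at 0.943 to 0.958, taken across genes, which do not count as replicates.

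The labelled cell type was set against marker genes. Of 9 smooth muscle markers, 8 were above background on at least 1 array, among them Acta2 and Tagln. Myh11, Lmod1 and Des were so on no more than 1 array of a group by any probe, and were not kept. Myocd, the coactivator of smooth muscle genes, was on none. The summed intensity of this list was 111556 to 134641 on the PGE2 arrays, against 271314 to 480713 on the control arrays, and 0 of its 5 tested genes were called (median log2 difference -1.77); most of the sum came from Acta2, Tagln and Cald1. Of 9 fibroblast markers, 7 were above background somewhere, and the sum was 28496 to 31890 with PGE2 against 54485 to 118761 in control. Dcn made up most of it in control, and Dcn and Ly6a together with PGE2. In that list Ly6a rose (log2 difference 4.22 ± 0.30, adjusted p = 0.0342, limma), the other 5 tested genes were not called (among them Pi16 at 2.80, Dcn at -2.89 and Lum at -2.15), and the median was -0.02. Of 8 endothelial markers, 4 were above background on any array (sums of 122 to 175 with PGE2 against 150 to 288 in control), with Tie1, Tek, Cldn5 and Emcn on none. Only Pecam1 was kept, so these sums rest largely on signals below background. The highest held a Kdr reading of 174 units on control replicate 1, against 4.72 to 9.42 units on the other arrays. Of 8 macrophage markers, 5 were above background on any array (sums of 23900 to 36403 with PGE2 against 36324 to 45505 in control), with Adgre1, Lyz2 and Mrc1 on none. Most of that sum came from the brighter Itgam probe (-0.59), while the other Itgam probe, at 11.6 to 16.4 units, was above background on no array. The Csf1r probes gave 1.00 and -0.40, and only the brightest Ptprc probe was above background. The median of the 5 tested macrophage markers was 0.64, with Cd68 at 2.11, and 0 were called. The part of these marker values in the results below was not tested, and in bulk RNA fewer cells of a type and less RNA per cell cannot be told apart.

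With PGE2, elastin transcript fell below what the arrays could measure, while the other 8 tested genes were well above background on all 4 arrays. Of the 9 tested genes, Eln fell and 0 rose at the threshold, against 0.968% of all 17660 genes called in either direction, 0.532% called higher and 0.436% called lower. By probe, the 2 Eln probes were called out of 17, against 0.854% of all 26100 kept probes and 0.360% called lower. These 2 probes read the same gene in the same RNA, so the count repeats the gene result. Both were kept through the control arrays alone. At an unadjusted p under 0.05, Fbln1 was higher and Eln lower, against 16.7% of all genes (7.42% higher and 9.26% lower). In 7 of the 9 genes the groups did not overlap, 2 higher and 5 lower with PGE2, against 50.7% of all tested genes (24.6% higher and 26.1% lower). The median log2 difference of the 9 genes was -0.21, also with Eln at its bound, beside -0.01 over all tested genes. The authors' own scaling raised all differences alike by 0.24, so that the same medians were 0.03 and 0.23. The median of the 9 genes was -0.08 with quantile normalization and -0.10 without control replicate 2.

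**Figure D1:**
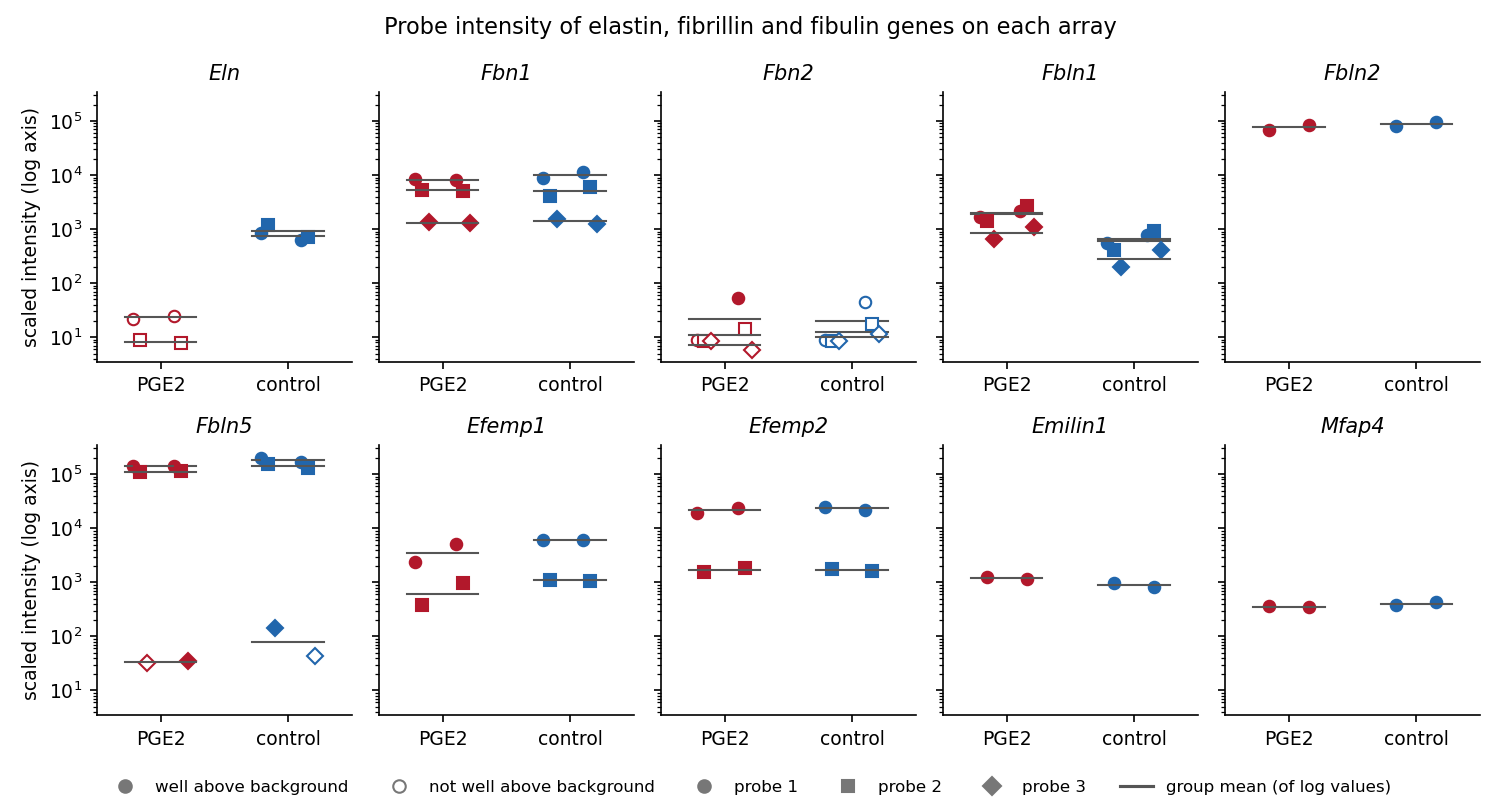
Scaled intensity of each probe of the 10 genes on a log axis, with the 2 PGE2 arrays left of the 2 control arrays. Filled symbols are well above background, open ones are not, symbol shapes mark the probes of a gene and lines the group means of log values. Both Eln probes drop to open symbols with PGE2, at 21.9 and 25.2 units for the first probe, while Fbn2 is near background throughout.

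Eln (band 5qG2) encodes elastin, the protein that gives the aortic wall its recoil. Its first probe read 21.9 and 25.2 units on the PGE2 arrays, against 852 and 637 units on the control arrays. The second probe read 8.85 and 7.86 units with PGE2, against 1194 and 722 units in control. Neither PGE2 array was well above background on either probe, both control arrays were on both, and the groups lay far apart. Because the PGE2 values are below that limit, the difference between group means has only a bound. On these scaled intensities mean Eln was at least 24.7-fold lower with PGE2 by the first probe and at least 32.4-fold by the other. The bound leaves out the spread between cultures. The p-values belong to the fitted differences and not to the bounds (adjusted p = 0.0342, and 0.0351 over all 26100 kept probes, limma). The fitted log2 difference of -4.97 ± 0.23 had the smallest unadjusted p of the 17660 genes (1.17e-05) and was the 22nd largest in size, though signals below background enter both. The 2 arrays of a group differed by 0.20 on the log2 scale with PGE2 and by 0.42 in control. The fall had the same direction under all 14 alternatives that gave a value, the call held in 9, and the adjusted p ranged from 0.00252 to 0.179. With 1 array left out, the lone array of its group is assumed to vary like the other group, whose 2 arrays alone give the spread; the lowest p came from such a fit. The call was lost without control replicate 1 and without control replicate 2, where the fitted difference was -4.76 and -5.18. It was -3.20 and -3.15 with the normexp background correction, which here added an offset of 50 units to every corrected signal. That offset shrinks differences that involve dim signals, so these 2 values are not comparable with the bounds.

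Fibrillins are the large glycoproteins that polymerise into microfibrils, with fibrillin 1 the main form after birth and fibrillin 2 typical of development. Fbn1 (band 2qF1) read 8293 and 8223 units on the PGE2 arrays, against 8708 and 11218 units on the control arrays, by its brightest probe. The PGE2 values lay below both control values, but by less than the control arrays differed from each other. The log2 difference was -0.26 ± 0.21 (95% interval -0.81 to 0.29, adjusted p = 0.583, limma), and the other probes gave 0.06 and -0.08 with overlapping groups. No difference beyond the spread between cultures was found for Fbn1, and its interval allows a level between 0.570 and 1.22 times that of control.

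None of the 3 probes of Fbn2 (band 18qD3) was kept. The brightest read 8.91 and 53.9 units with PGE2, against 8.77 and 45.2 units in control, and only the second of these PGE2 values was well above background. The other probes read 5.90 to 14.4 units with PGE2 and 8.61 to 17.6 units in control. In both groups replicate 2 was the higher on the brightest probe, and no difference between the groups was detectable.

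Fbln1, Fbln2 and Fbln5 are fibulins, short-armed glycoproteins with repeated EGF-like modules that bind elastin, fibrillin, proteoglycans or basement membrane proteins. Fbln1 (band 15qE2), whose protein lies within elastic fibres and also binds fibronectin and versican, had the highest difference of the 9 tested genes. Its brightest probe read 1655 and 2206 units on the PGE2 arrays, against 552 and 773 units on the control arrays. The second probe read 1442 and 2652 units with PGE2 against 404 and 939 units in control, and probe 3 read 652 and 1097 units with PGE2 against 196 and 411 units in control. On every probe both PGE2 arrays lay above both control arrays, and replicate 2 was the higher in each group. The log2 difference was 1.55 ± 0.27, or 2.93-fold (95% interval 1.77 to 4.84), with 1.67 and 1.57 on the other probes, and 94.3% of tested genes had a smaller difference in size. It did not pass the threshold over all genes (unadjusted p = 0.00344, adjusted p = 0.102, limma).

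Fbln2 (band 6qD1), which encodes a fibulin of the vessel wall that binds fibrillin 1 and versican, read 68352 and 84169 units on the PGE2 arrays, against 80157 and 95668 units on the control arrays. The groups overlapped, replicate 2 was the higher in both, and the difference was -0.21 ± 0.21 (95% interval -0.77 to 0.36, adjusted p = 0.671, limma). Its sign turned with quantile normalization, alone or after normexp (0.11 each).

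Fbln5 (band 12qE) encodes fibulin 5, which carries tropoelastin to microfibrils and without which mice have loose skin and tortuous arteries. Its brightest probe read 142629 and 141531 units with PGE2, against 204016 and 165989 units in control, and the second 110101 and 114361 units with PGE2 against 152902 and 129520 units in control. Both probes were lower on both PGE2 arrays than on either control array, by -0.37 ± 0.19 (95% interval -0.89 to 0.14, adjusted p = 0.417, limma) and -0.33 ± 0.19. The first value was -0.07 with quantile normalization, -0.13 with normexp and quantile, and -0.22 without control replicate 1. Probe 3, above background on 1 array of each group, was not kept. It read 32.9 and 34.6 units with PGE2 against 143 and 44.3 units in control. Both PGE2 arrays detected Fbln5 on its first 2 probes, and neither detected Eln. The first Eln probe read only 852 and 637 units in control, far nearer the background limit. Detection with PGE2 therefore does not compare the changes of the 2 genes.

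**Figure D2:**
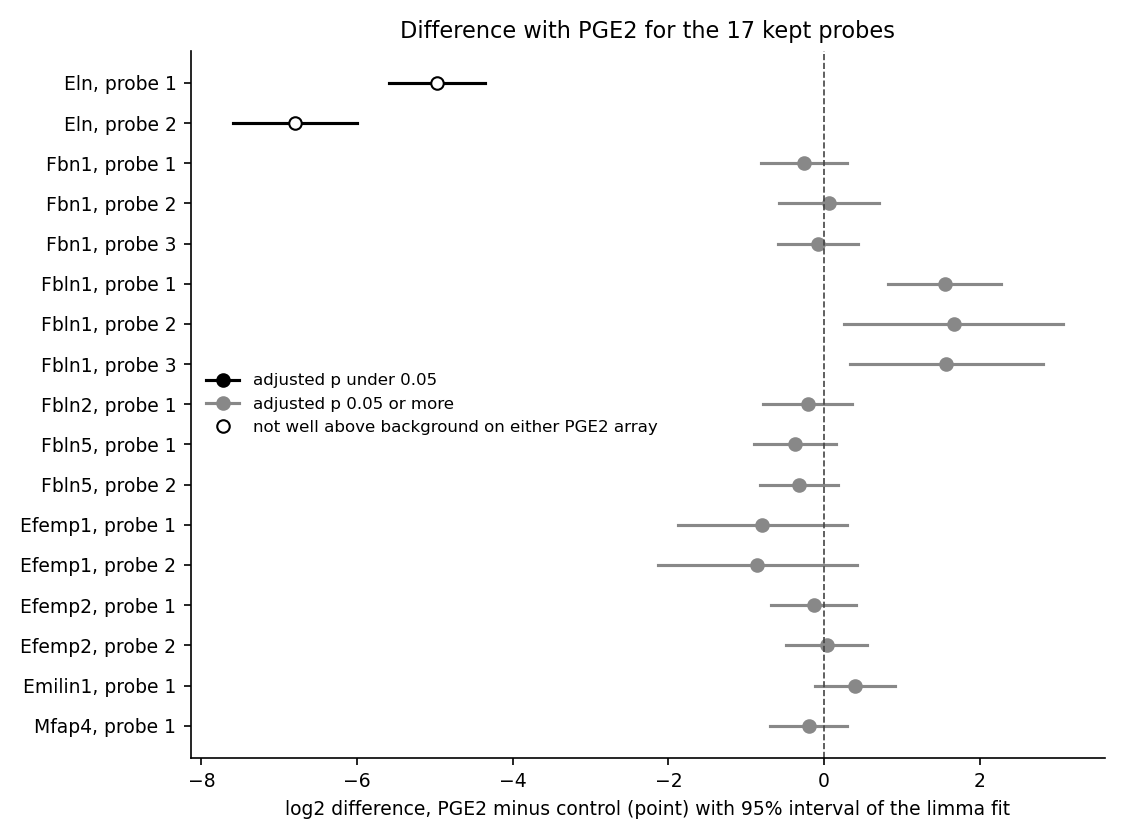
Log2 difference (PGE2 minus control) of the 17 kept probes, with the 95% interval from the limma fit over all kept probes; black marks an adjusted p under 0.05 and open points a probe not well above background on either PGE2 array. Only the intervals of Eln and Fbln1 lie clear of 0, and those of Eln rest on signals below background.

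Fbln1 and Fbln5 lay on opposite sides of 0, neither called, and their upstream sequences are set side by side, from RefSeq on build GRCm38.p6. Each is the 250 bases before the outermost start site in that table, 5′ to 3′, at chr15:85205699-85205948 on the plus strand for Fbln1 and chr12:101819120-101819369 on the minus strand for Fbln5. Capitals mark TGACG, the core of the cyclic AMP response element (CRE) that CREB binds, searched on both strands because EP4 signals through cyclic AMP.
Fbln1: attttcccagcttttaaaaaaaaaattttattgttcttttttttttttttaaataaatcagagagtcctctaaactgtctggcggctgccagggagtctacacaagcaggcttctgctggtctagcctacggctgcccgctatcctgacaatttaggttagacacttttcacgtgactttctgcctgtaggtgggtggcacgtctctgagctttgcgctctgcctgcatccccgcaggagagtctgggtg
Fbln5: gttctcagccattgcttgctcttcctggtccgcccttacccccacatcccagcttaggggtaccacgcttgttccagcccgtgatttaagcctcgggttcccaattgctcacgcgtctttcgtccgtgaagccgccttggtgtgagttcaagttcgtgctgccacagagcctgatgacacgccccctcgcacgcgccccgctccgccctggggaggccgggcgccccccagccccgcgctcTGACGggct

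The core begins 9 bases before the Fbln5 start site and nowhere in the Fbln1 stretch. The Fbln1 stretch has 46.4% G and C and that of Fbln5 65.2%. Start-site windows (250 bases before to 50 after) were searched for 7 of the 10 genes, 11 windows in all. None was at hand for Eln and Mfap4, and Fbn2 was left out of the search. The core TGACG occurred in 2 of these windows, both of Fbln5, against 20.8% of the 32851 windows in the table. The full element TGACGTCA, which holds the core, and the CArG box of serum response factor occurred in none of the 11, against 1.79% and 1.63% of all windows. These matches describe letters and say nothing of binding.

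Efemp1 (band 11qA3.3) and Efemp2 (band 19qA) encode fibulins 3 and 4. Fibulin 4 is required for elastic fibre assembly in mice, and fibulin 3 supports the fibres of fascia and connective tissue. Efemp1 read 2364 and 5116 units on the PGE2 arrays, against 5972 and 6085 units on the control arrays, and its second probe 379 and 963 units with PGE2 against 1112 and 1074 units in control. The control arrays nearly coincided, and PGE2 replicate 1 lay far below the other 3 arrays on both probes. The log2 difference was -0.79 ± 0.41 (95% interval -1.89 to 0.30, adjusted p = 0.417, limma). It was -0.24 without PGE2 replicate 1 and -1.35 without PGE2 replicate 2, so its size rests on 1 array.

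Efemp2 read 19423 and 23731 units with PGE2, against 25158 and 22026 units in control. The groups overlapped, and the difference was -0.13 ± 0.20 (95% interval -0.67 to 0.41, adjusted p = 0.778, limma), with 0.04 on a second probe. This interval spans 0.627 to 1.33 times the control level, so a change as large as that of Eln is outside it.

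Emilin1 (band 5qB1) encodes a glycoprotein found where elastin meets the microfibrils. It read 1236 and 1139 units with PGE2, against 981 and 825 units in control, with both PGE2 arrays above both control arrays. Its difference of 0.40 ± 0.19 was not called (95% interval -0.11 to 0.91, adjusted p = 0.383, limma). Mfap4 (band 11qB2), whose protein binds elastin, fibrillin 1 and collagen, read 364 and 344 units with PGE2, against 378 and 435 units in control. The PGE2 values were the lower, by -0.20 ± 0.18 (95% interval -0.68 to 0.29, adjusted p = 0.634, limma). Over 15 alternatives the difference ranged from -0.44 to -0.02 for Fbn1, from -0.36 to 0.11 for Fbln2, from -0.28 to 0.11 for Efemp2, from 0.28 to 0.64 for Emilin1 and from -0.30 to 0.04 for Mfap4.

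**Figure D3:**
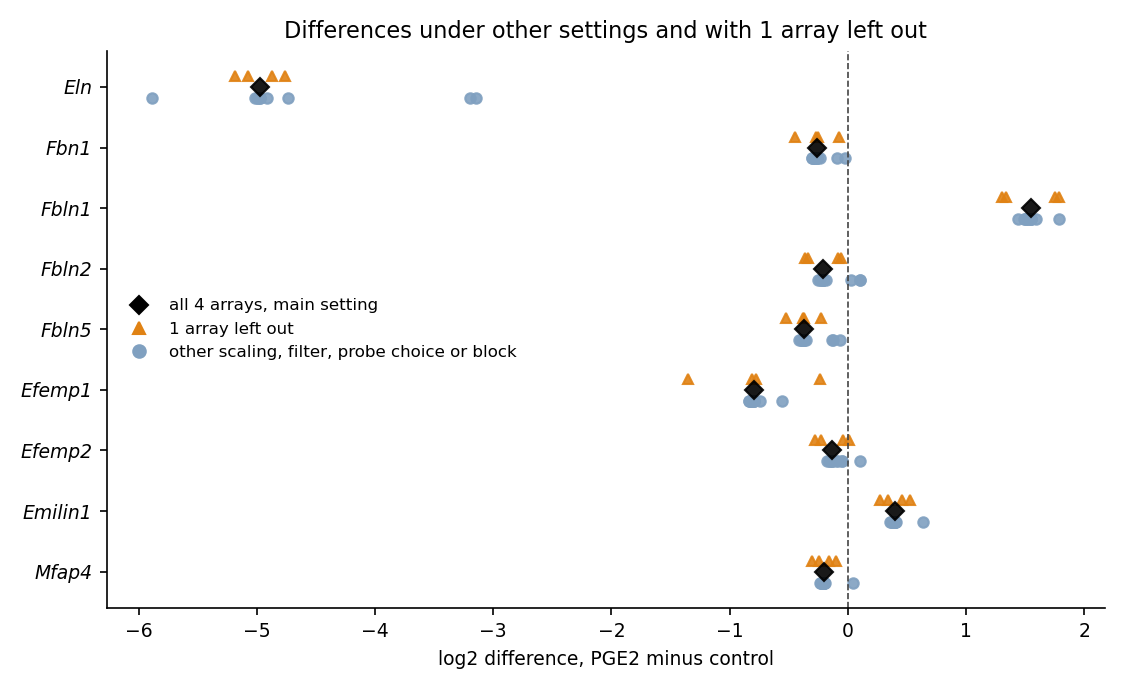
Log2 difference (PGE2 minus control) of the 9 tested genes with all 4 arrays (diamonds), with 1 array left out (triangles) and under other scalings, filters, probe choices and the replicate block (circles). Eln stays between -5.89 and -3.15, the latter with the normexp offset, and Fbln1 between 1.31 and 1.79. Fbln2, Efemp2 and Mfap4 cross 0, Mfap4 only on the authors' scaling, which raises all genes.

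Other genes of the pathway were taken from lists chosen with earlier results of these data known. Of 26 listed partners in microfibrils and elastic fibres 19 were tested, and of these 0 were called, against 0.968% of all genes. At an unadjusted p under 0.05 there were 6 (limma), against 16.7% of all genes. Of the 19, 8 lay above 0 and 11 below. The median log2 difference was -0.12 (-0.40 without control replicate 1, 0.03 without PGE2 replicate 1 and 0.01 without control replicate 2). Vcan, which encodes versican, a large proteoglycan that binds fibrillin and fibulins, stood furthest from 0 among them. It read 16485 and 14347 units with PGE2, against 165 and 593 units in control, a difference of 5.62 ± 0.65 just outside the threshold (adjusted p = 0.0555, limma). Its 3 probes gave 4.78 to 6.06, and the probe with 4.78 passed among all kept probes (adjusted p = 0.0356). Adamtsl5, of a family of microfibril-associated proteins, read 253 and 298 units with PGE2 against 944 and 737 units in control (-1.61 ± 0.22, adjusted p = 0.0729, limma). Its second probe gave 0.54 but was dim, at 51.6 and 54.7 units with PGE2 against 48.4 and 27.5 units in control. On that probe control replicate 2 was not well above background.

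The small microfibril-associated glycoprotein genes Mfap2 and Mfap5 were not called and varied widely between cultures of a group. The first Mfap2 probe read 470 and 1486 units with PGE2, against 191 and 1049 units in control (0.90 ± 1.01, adjusted p = 0.701, limma). Its second probe read 338 and 201 units with PGE2, against 69.8 and 131 units in control, where the groups did not overlap (1.45 ± 0.43, adjusted p = 0.222 over all kept probes). Mfap5 read 1300 and 578 units with PGE2, against 3800 and 1224 units in control (-1.31 ± 0.70, adjusted p = 0.428). Ltbp4, a latent TGF-beta binding protein that acts with fibulins 4 and 5, read 6052 and 8739 units with PGE2, against 5254 and 11957 units in control (-0.12 ± 0.47, adjusted p = 0.918). The groups overlapped for Mfap5, for Ltbp4 and on the first Mfap2 probe.

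Of 6 elastin cross-linking genes, 0 were called (limma, 1 at an unadjusted p under 0.05, against 16.7% of all genes), with 4 below 0 and a median of -0.66. Lox, the main cross-linking enzyme of the aorta, read 7946 and 9538 units with PGE2, against 14164 and 14180 units in control (-0.70 ± 0.19, adjusted p = 0.191), with -0.88 on its second probe. Loxl1, which acts with fibulin 5, read 6202 and 7879 units with PGE2, against 12202 and 9513 units in control (-0.62 ± 0.24, adjusted p = 0.303). In both genes the groups did not overlap, which held for 50.7% of all tested genes (26.1% lower with PGE2, like these).

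Elastin can also be lost to proteases, which act on the protein and not on its transcript. Of 6 tested proteases that cut elastin, 0 were called (limma, 2 at an unadjusted p under 0.05, against 16.7% of all genes). Their median was 0.36 (-0.50 with dim probes included, 0.59 with quantile normalization and 0.19 without control replicate 2). Cela1, a pancreatic-type elastase gene, read 8599 and 6271 units with PGE2, against 1287 and 2132 units in control (2.15 ± 0.33, adjusted p = 0.0861), with 2.33 on its second probe. Mmp14, the membrane-bound activator of gelatinase A, read 1191 and 1411 units with PGE2, against 833 and 716 units in control (0.75 ± 0.20, adjusted p = 0.191). Of 7 tested inhibitors of such proteases 1 was called, against 0.968% of all genes. At an unadjusted p under 0.05, 2 were higher and 2 lower (limma), against 7.42% and 9.26% of all genes. The values ran from -1.49 ± 0.37 for Reck to 6.77 ± 1.73 for Slpi, neither of them called. The median was -0.20 and turned positive under 3 alternatives beside the authors' scaling. The called gene, Timp1, read 94082 and 90588 units with PGE2, against 15340 and 14008 units in control, and rose (log2 difference 2.65 ± 0.17, adjusted p = 0.0342, limma).

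Of 11 tested receptors for elastin and microfibrils, 1 was called, against 0.968% of all genes. At an unadjusted p under 0.05 there were 3 (limma), against 16.7% of all genes. The median was -0.37 (-0.57 without control replicate 2, -0.22 without PGE2 replicate 2 and -0.20 over the mean of kept probes). The called gene, Itga8, encodes the alpha 8 integrin subunit and read 42.9 and 72.4 units with PGE2, against 1798 and 1454 units in control. It fell (log2 difference -4.86 ± 0.32, adjusted p = 0.0342, limma). The group mean of its second probe was at least 3.91-fold lower, and the fitted difference of that probe was not called (adjusted p = 0.149 over all kept probes, limma). Of 14 tested regulators of elastin transcription, 0 were called (limma, 5 at an unadjusted p under 0.05, against 16.7% of all genes), with a median of -0.31 (-0.19 without control replicate 1). Tgfb1, whose product raises elastin mRNA in cultured smooth muscle cells, read 1432 and 1234 units with PGE2, against 510 and 692 units in control (1.16 ± 0.23, adjusted p = 0.127). Tgfb2 read 5796 and 4021 units with PGE2, against 27908 and 10822 units in control (-1.85 ± 0.52, adjusted p = 0.207).

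**Figure D4:**
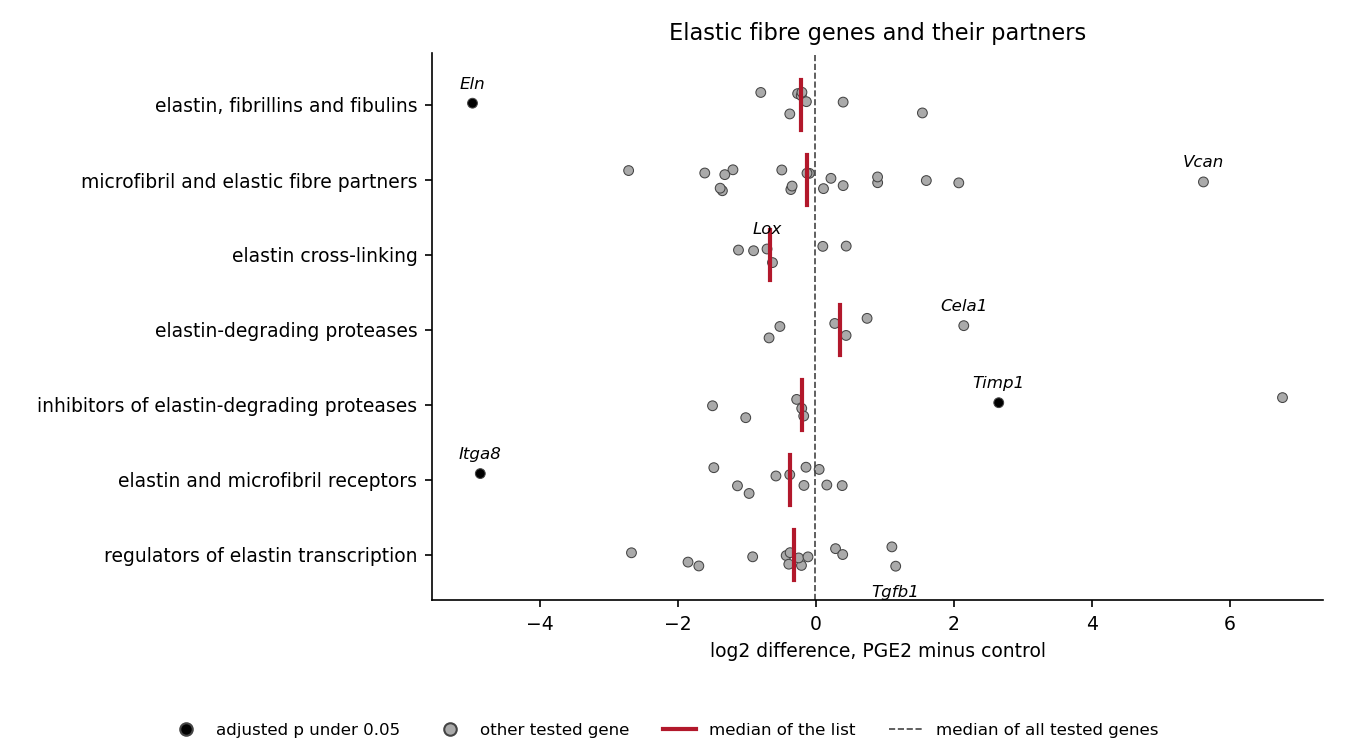
Log2 difference (PGE2 minus control) of each tested gene in the elastic fibre group and in 6 partner lists; black points have an adjusted p under 0.05, bars are list medians and the dashed line is the median of all tested genes. Eln and Itga8 lie near -5 and Timp1 at 2.65, and the gene with the smallest p of each list is named.

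The 3 named genes whose centred log2 values on the 4 arrays lay nearest to those of Eln, by Euclidean distance over the 4 arrays, were Itga8 (0.41), Spi1 (0.68) and Bcl11b (0.73). Itga8 was measured on all 4 arrays, while Spi1 and Bcl11b, like Eln, were above background on the control arrays alone, where such distances rest partly on dim signals. For Fbln5, they were Ybx2 (0.017), Clta (0.018) and Rpl37rt (0.025), none of them called.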

How the data were processed

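Per the labels' protocols, total RNA was amplified with Agilent's Low Input Quick Amp kit, labelled with Cy3 and hybridised to 1 array per culture. The deposited intensity was made by Agilent Feature Extraction, version 11.5.1.1 per the file headers (array design 074809, probe positions on mm9) and 12.0.3.1 per the submitters' processing notes. The authors' deposited signal table holds the same intensity times 1 constant per array (0.945 to 1.07), and gave the gene symbols, gene IDs and cytobands. Its 4 columns of detection calls were not used. The other columns used, per the file headers, are yes or no flags per spot.

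Spots of 1 probe were averaged on the log2 scale, 158 probes with outlier flags were left out, and each array's 75th percentile over the 56447 probes was subtracted. For each gene the kept probe of highest mean log2 value was taken. Symbols were updated through RefSeq gene IDs (44970 of 47700 spots matched). PGE2 was compared with control by limma 3.58.1 in R 4.3.3 (lmFit, then eBayes, with 2 residual degrees of freedom and 2.40 from the prior) without a block, since the labels do not say that replicate numbers mark shared cultures. A bound sets the brighter group's mean against, per array, the dimmest signal well above background or the probe's own, whichever was higher. All arrays carry 1 slide barcode, so no slide batch could be tested, and 0 pairs of arrays held identical values. The limma fit was tested on simulated normal values, and the scaling, filter, probe choice and bound were not.

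All 10 genes were described whatever their result. From each partner list the called genes, or else the 2 with the smallest p, were named, with Mfap2, Mfap5, Ltbp4, Lox and Loxl1 always and the 3 nearest profiles of Eln and Fbln5. The protease inhibitors with the lowest and the highest value were named as well. The genes and lists were chosen with earlier results of these data known. Alternatives covered scaling, background correction, the dim-probe filter, probe choice, the authors' signal, the replicate block and each array left out.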

Additional observations from a re-analysis of the deposited data

How the results depend on the processing

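Of the 9 genes, Eln, Fbn1, Fbln1, Fbln5, Efemp1 and Emilin1 kept their direction under every alternative that gave a value. Fbln2 turned with quantile normalization and Efemp2 without PGE2 replicate 1, and these and Mfap4 also on the authors' signal, which raised all genes alike by 0.24. All tested genes numbered 94 higher and 77 lower at the main setting (limma). The counts were 50 higher and 37 lower with quantile normalization, 49 lower with median centring, 48 lower with the percentile over spots, 41 lower with normexp and quantile, and 53 higher and 36 lower with the filter on all 4 arrays, where Eln gave no value. Limma called 0 genes in either direction with the percentile over probes detected on all arrays (3501 at an unadjusted p under 0.05), on the authors' signal (4203) and without the filter (2540), where Eln had adjusted p = 0.0661, 0.0565 and 0.179. Of the elastic fibre genes, 1 was called at the main setting and 0 under these 3 settings and the filter on all 4 arrays. With 1 array left out, 0 to 284 genes were higher, 0 to 344 were lower and 0 to 1 of the elastic fibre genes were called. The zeros came without control replicate 1 (2697 genes at an unadjusted p under 0.05) and without control replicate 2 (2933). With the replicate number as a block, 200 genes were higher, 195 were lower and 2 elastic fibre genes were called, Eln and Fbln1 (adjusted p = 0.0448). Deviations of same-numbered arrays from their group means correlated at 0.42 across genes, but with only 2 numbers this does not establish a pairing. The median of the protease inhibitors was 0.02 with quantile normalization, 0.01 with normexp and quantile, 0.04 on the authors' signal and 0.07 over the mean of kept probes. Normexp used median spot signals and, like the percentile over spots, was chosen after seeing the data; the planned version on mean signals was not run. The cause of lost calls was not tested. Signals below background limit what can be said of Eln with PGE2 and of Fbn2 in both groups.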

Other observations

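The genes beside Eln on its chromosome were not called, and their difference from Eln was not tested. By order in the RefSeq table of assembly GRCm38.p6, the nearest tested protein-coding genes were Limk1, a kinase of actin turnover, at 0.01 ± 0.22 on the log2 scale (adjusted p = 0.988, limma), and Mettl27 at -0.67 ± 0.23 (adjusted p = 0.274). Beside Fbln1 stood Fam118a at -0.37 ± 0.27 and Atxn10 at -0.19 ± 0.17 (adjusted p = 0.547 and 0.620). None of the 18 neighbours of the 9 tested elastic fibre genes was called, against 0.968% of all genes.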
